A study of Homo sapiens with 18 samples.

Results

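The response of 2 MLL-rearranged acute myeloid leukemia (AML) cell lines to the Menin inhibitor VTP50469 was compared gene by gene, as the log2 response of MV4-11 cells minus that of MOLM13 cells. The members are the 8 RNA-seq libraries of these 2 lines, treated and control, out of 18 libraries in the count table. The study exposed AML cell lines with MLL rearrangement or mutant NPM1 to Menin and BET protein inhibitors and read out their transcriptomes, and the remaining libraries (OCI-AML3, and MOLM13 with a BET inhibitor) were not used here. The treated MV4-11 libraries (n = 2) came from cells grown in IMDM medium with 1000 nM VTP50469 for 16 h, and the control MV4-11 libraries (n = 2) from the same line without the inhibitor. The treated MOLM13 libraries (n = 2) came from cells grown in RPMI medium with 500 nM VTP50469 for 16 h, set against control MOLM13 libraries (n = 2). Both lines were kept in the same share of fetal bovine serum. Line, dose and medium differ together, so that a difference in response cannot be assigned to any of them, and each genotype is represented by 1 line.

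Menin, the product of MEN1, tethers MLL (KMT2A) and its fusion proteins to chromatin. MLL fusions keep a program of hematopoietic progenitor genes active, among them HOXA9, MEIS1 and MEF2C, and Menin inhibitors release the complex from chromatin and lower that program, after which such cells can move towards a monocytic or granulocytic state. MOLM13 carries MLL-AF9 (KMT2A-MLLT3) and MV4-11 carries MLL-AF4 (KMT2A-AFF1), and both lines are also known for an internal tandem duplication in the receptor tyrosine kinase FLT3.

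The libraries held 20730486 to 30090830 counts in MV4-11 and 21447286 to 23684811 counts in MOLM13. Levels are given as CPM, the count of a gene relative to the scaled total of its library, within each line, so that levels of the lines stand side by side and were not tested against each other, and 3 counts correspond to 0.0997 to 0.145 CPM. Replicates of MV4-11 lay farther apart than those of MOLM13. The biological coefficient of variation was 13.2% in MV4-11 and 2.38% in MOLM13, and the chi-square per degree of freedom between replicates was 23.9 (treated) and 43.9 (control) in MV4-11, against 2.01 (treated) and 2.43 (control) in MOLM13. The labels do not state that the MV4-11 replicates were separate cultures, so p-values measure only the spread between these libraries. Myeloid markers fitted the lines: SPI1, the transcription factor PU.1, was at 360 to 529 CPM and the surface antigen CD33 at 120 to 162 CPM over the 8 libraries, although CD68, a macrophage marker, did not exceed 0.353 CPM. Of markers of other cell types, HBB (erythroid), PF4 and PPBP (platelets) and KRT19 (epithelium) had 0 counts, whereas the keratin gene KRT8 was at 7.24 to 14.02 CPM in MV4-11 and 0.237 to 0.433 CPM in MOLM13, and the erythroid factor KLF1 was at 1.46 to 3.19 CPM in MV4-11 and 0 in MOLM13. CD3D, a chain of the T cell receptor complex, was at 0 in MV4-11 and at 5.67 to 6.30 CPM in MOLM13. Summed levels of 14 lymphoid markers were 132 and 102 CPM in treated and 57.7 and 76.4 CPM in control MV4-11 libraries, and 44.0 to 48.4 CPM over all MOLM13 libraries. Those of 12 epithelial and stromal markers were 24 and 20.3 CPM in treated and 17.9 and 13.7 CPM in control MV4-11 libraries, and did not exceed 1.5 CPM in MOLM13, and those of 14 erythroid and megakaryocyte markers were 28.9 to 37.3 CPM over the 8 libraries. Of these lists 3, 1 and 2 markers were tested in both lines, and 1 lymphoid marker, NKG7, and the stromal collagen gene COL1A1 were called higher in MV4-11. COL1A1 was at 0.920 and 1.10 CPM in treated and 0.101 and 0.0652 CPM in control MV4-11 libraries, with both controls under the level of 3 counts. Both calls were lost without treated MV4-11 replicate 1 and with limma-voom on quantile-normalized values. That of NKG7 was also lost without control MV4-11 replicate 1 and with 1 dispersion shared by both lines. That of COL1A1 was also lost without control MV4-11 replicate 2 and with DESeq2. The part of these markers in the results was not tested. In bulk RNA, fewer cells of a kind and less RNA per cell cannot be told apart.

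Replicates differed from each other within both MV4-11 groups. Mitochondrial transcripts made up 6.23% and 6.68% of the counts in the treated MV4-11 libraries, against 10.3% in control MV4-11 replicate 1 and 5.60% in control replicate 2. Treated MV4-11 replicates 1 and 2 differed from each other along transcript length, and a pair alone cannot show which of them deviates. The 12944 genes with a known length were split into 5 classes of equal size. The median log2 CPM of replicate 1 minus replicate 2 was 0.21 in the class with the shortest transcripts (38 to 1864 bases) and -0.24 in that with the longest (5875 to 205012 bases), whereas it ran between 0.02 and -0.02 over the classes of the treated MOLM13 pair. The difference in response also ran along transcript length. Its median was 0.10 in the shortest class and -0.18 in the longest. The median response of MV4-11 was 0.003 in the shortest class and -0.046 in the longest. That of MOLM13 was -0.106 in the shortest class and 0.12 in the longest, so that it moved more than that of MV4-11. In the shortest class 193 genes were higher and 90 lower in MV4-11, and in the longest 107 were higher and 351 lower. When each library was centred over transcript length, an alternative chosen after seeing the data, the counts were 165 and 193 in the shortest class and 257 and 308 in the longest. Centring also removes any trend of the response itself along length, so that these more even counts follow from the method. In all, 1146 genes were higher and 1341 lower in that fit, and 1776 of the 1868 calls remained. Of 173 list and ranked genes with a called difference, 9 lost the call in that fit (KMT2A, CENPF, MKI67, HSP90B1, CANX, VLDLR, PDK1, COX7C and RPS19).

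**Figure D1:**
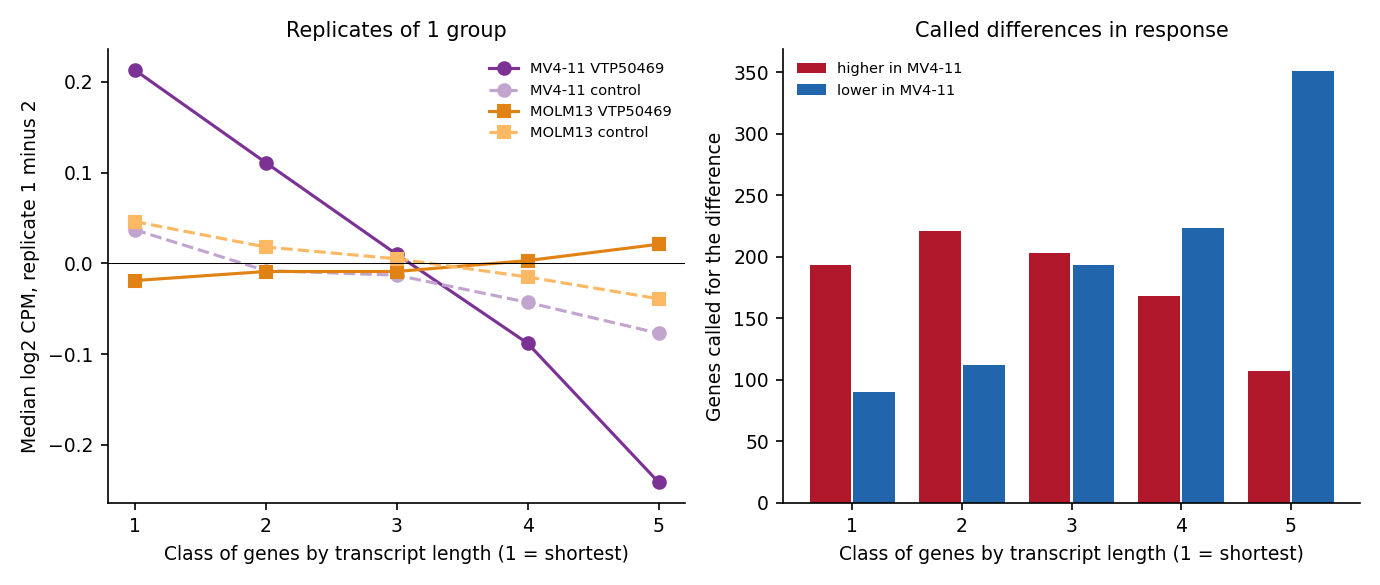
Left, median log2 CPM of replicate 1 minus replicate 2 (vertical axis) for each group over 5 classes of genes by transcript length (horizontal axis, shortest first). The line of treated MV4-11 falls steeply, with 0.21 in the shortest class and -0.24 in the longest, and those of the other groups are flatter. Right, number of genes called for the difference in response in each class, higher (red) or lower (blue) in MV4-11.

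In all, 13060 genes were tested in both lines. A gene was called when the adjusted p was below 0.05 and the log2 change was at least 0.32 in size, with edgeR quasi-likelihood fits of each line and a standard error (SE) combined from both. An edgeR adjusted p beside a difference is from a t test on the responses of both fits with this combined SE. Within MV4-11, 1498 genes rose (11.5%) and 1343 fell (10.3%) after VTP50469. Within MOLM13, 1134 genes rose (8.68%) and 701 fell (5.37%). The difference itself was called for 1868 genes, 894 with a higher response in MV4-11 (6.85% of those tested) and 974 with a lower one (7.46%), and 3918 genes had an unadjusted p under 0.05. These 2 shares, 6.85% and 7.46%, stand as the background for the counts of list members below, which are given with their share of the members tested and are descriptions, not tests of a list. The median difference over all genes was -0.0201, with a median SE of 0.193.

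Responses of the lines ran partly in parallel. Across the 13060 genes the log2 responses had a Pearson correlation of 0.363 and a Spearman correlation of 0.305, given as a description, since genes are not independent replicates. In total, 386 genes rose in both lines, which is 25.8% of the genes that rose in MV4-11 and 34.0% of those that rose in MOLM13. Likewise 216 genes fell in both, 16.1% of those that fell in MV4-11 and 30.8% of those in MOLM13. The spread of responses was wider in MV4-11, with an SD over genes of 0.560 against 0.362 in MOLM13. Of the genes called for the difference, 555 rose and 638 fell in MV4-11 without a call in MOLM13, 207 were called in MOLM13 alone, 279 in neither line, 138 in the same direction in both lines, and 51 in opposite directions.

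**Figure D2:**
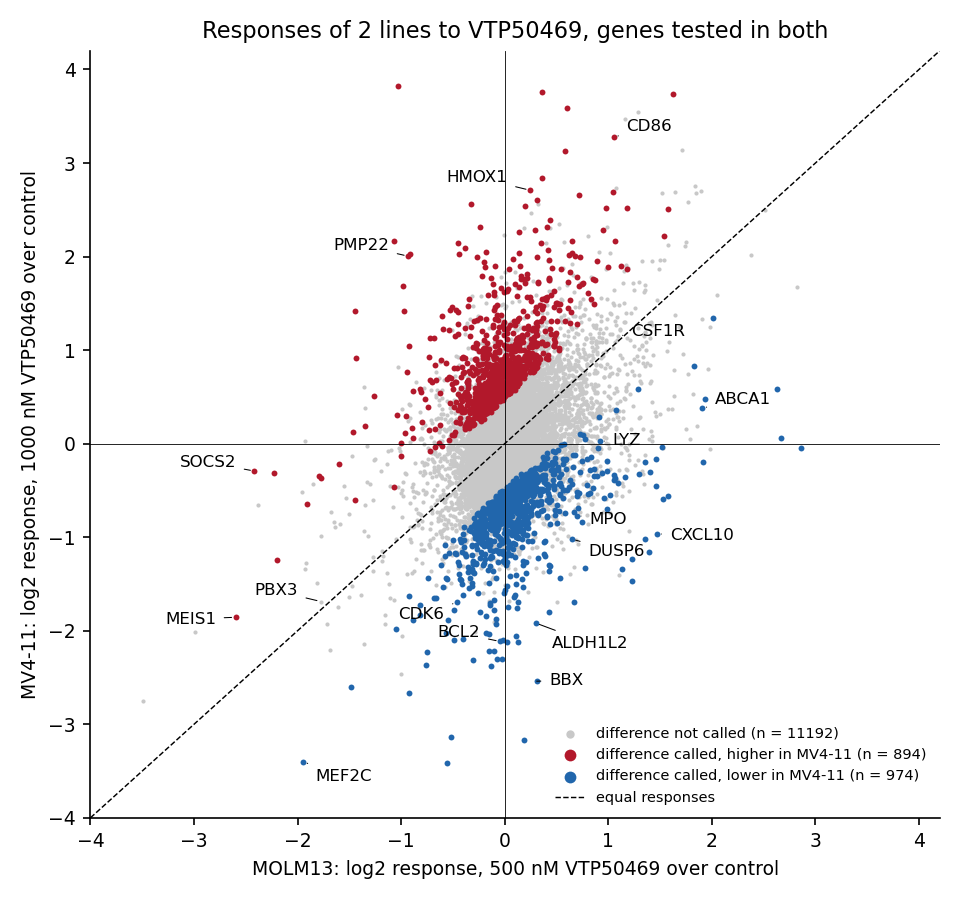
Log2 response of each gene in MV4-11 (vertical axis, 1000 nM) against that in MOLM13 (horizontal axis, 500 nM), with genes called for the difference in red (higher in MV4-11, 894) and blue (lower, 974) and the line of equal responses dashed; 1 gene lies outside the axes. MEF2C, CDK6, BCL2 and BBX lie low in MV4-11, SOCS2 and MEIS1 lie low in MOLM13, and PBX3 and CSF1R lie near the line.

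The number of calls depended on single MV4-11 libraries, which are numbered here as in the sample titles (1 and 2); the count table numbers the same libraries 2 and 3. Without treated MV4-11 replicate 1, 258 genes were higher and 230 lower, and without control MV4-11 replicate 1, 333 were higher and 574 lower. Without treated MV4-11 replicate 2 the counts were 967 and 1316. Leaving out any MOLM13 library gave 789 to 900 higher and 848 to 1022 lower. Across all 8 such fits, 206 higher and 182 lower genes kept their call each time. Unless a library is named beside it, each called gene described below is among these 388.

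**Figure D3:**
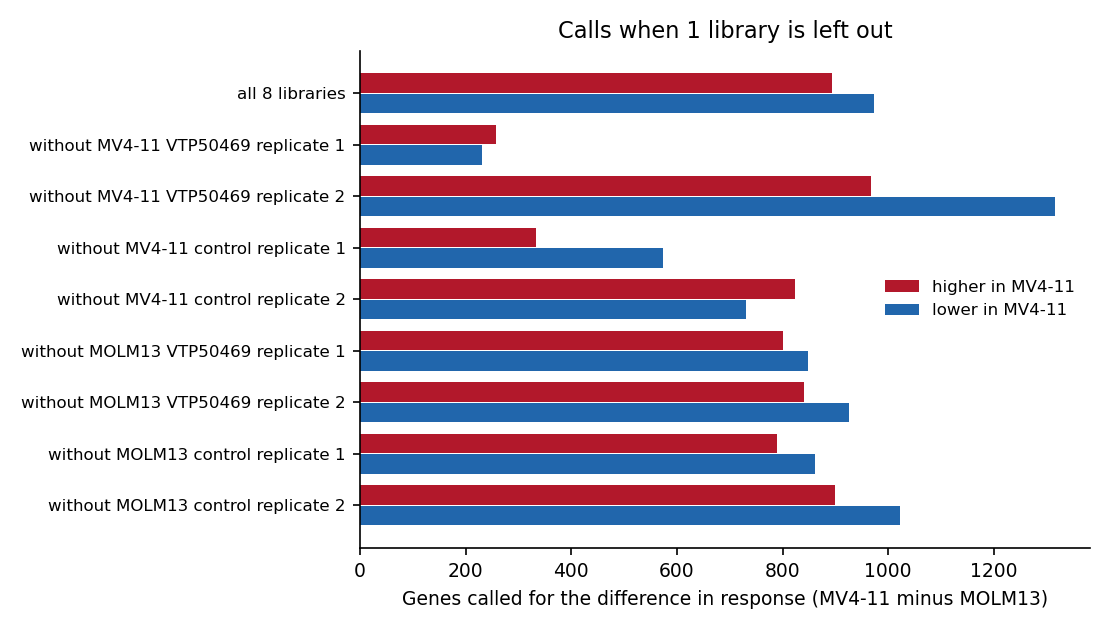
Number of genes called for the difference in response (horizontal axis) with all 8 libraries and with each library left out in turn (vertical axis), higher in MV4-11 in red and lower in blue. The bars are shortest without treated MV4-11 replicate 1 (258 and 230) and without control MV4-11 replicate 1 (333 and 574 for higher and lower).

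Of 12 MLL targets that the study names, 10 fell in MV4-11 and 10 fell in MOLM13. Their median log2 response was -0.98 in MV4-11 and -0.65 in MOLM13, against -0.0107 and 0.0025 over all genes. The difference was called lower in MV4-11 for 5 of them (41.7%) and higher for 1 (8.33%), with 3 lower without scaling factors and 0 higher with limma-voom on quantile-normalized values. The study picked this list, which is therefore not independent of the direction seen. MEF2C (chromosome 5, 88717117 to 88904105, a transcription factor of myeloid progenitors; positions are on hg38) had the lowest difference of the list. Its level was 17.9 and 20.7 CPM in treated and 210.2 and 198 CPM in control MV4-11 libraries, and 41.05 and 41.1 CPM in treated and 157 and 159.7 CPM in control MOLM13 libraries. Treated and control libraries did not overlap in either line, and the log2 response was -3.40 ± 0.17 in MV4-11 and -1.95 ± 0.04 in MOLM13 (SE, n = 2 libraries per group), a difference of -1.46 ± 0.17 (edgeR adjusted p = 2.4e-05).

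CDK6 (chromosome 7, 92604921 to 92836573), a kinase that drives entry into S phase, was at 139.9 and 222 CPM in treated and 546 and 628 CPM in control MV4-11 libraries, and at 167 and 157 CPM in treated and 221 and 225 CPM in control MOLM13 libraries. Its treated libraries were below its controls in both lines, and the difference was -1.23 ± 0.20 (edgeR adjusted p = 0.00060). MYB, a transcription factor of progenitor growth, fell in MV4-11, with 286 and 325 CPM in treated and 619.8 and 566 CPM in control MV4-11 libraries. In MOLM13 its level was 404 and 387 CPM in treated and 442 and 465 CPM in control libraries, a change of -0.20 ± 0.03 that was under the fold limit. The difference was -0.76 ± 0.16 (edgeR adjusted p = 0.0052), and this call was lost without treated MV4-11 replicate 1.

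MEIS1 (chromosome 2, 66435125 to 66573869), the homeobox partner of HOXA9, went the other way. It fell in both lines and further in MOLM13, with 19.7 and 25.1 CPM in treated and 85.9 and 76.4 CPM in control MV4-11 libraries, and 6.36 and 6.08 CPM in treated and 35.4 and 39.9 CPM in control MOLM13 libraries. No treated library reached a control of its line. The difference was 0.74 ± 0.19 (edgeR adjusted p = 0.011), and the call was lost without control MV4-11 replicate 2 or treated MV4-11 replicate 2, and with limma-voom. HOXA9 and the polycomb gene BMI1 fell in both lines, with differences of -0.56 ± 0.18 and -0.63 ± 0.20, but these calls held in 3 of the 8 fits that left out a library and were lost without treated MV4-11 replicate 1, without either MV4-11 control, without treated MOLM13 replicate 1, without control MOLM13 replicate 1 (HOXA9) or 2 (BMI1), and without scaling factors. Without treated MV4-11 replicate 1 the list had 1 higher and 2 lower calls, without control MV4-11 replicate 1 it had 1 and 3, without control MV4-11 replicate 2 it had 0 and 3, and without treated MV4-11 replicate 2 it had 0 and 5.

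Other targets fell in both lines without a call for the difference. PBX3, a further homeobox partner of HOXA9, had a log2 response of -1.69 ± 0.16 in MV4-11 and -1.77 ± 0.05 in MOLM13, a difference of 0.09 ± 0.17 (edgeR adjusted p = 0.77). FLT3 was at 263 and 277 CPM in treated and 488 and 530.2 CPM in control MV4-11 libraries, and at 156 and 155 CPM in treated and 249.5 and 261 CPM in control MOLM13 libraries, a difference of -0.20 ± 0.16. The demethylase-family gene JMJD1C and LAMP5, which encodes a lysosome-associated membrane protein, also fell in both lines, with differences of 0.33 ± 0.18 and 0.23 ± 0.16 that were also not called.

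**Figure D4:**
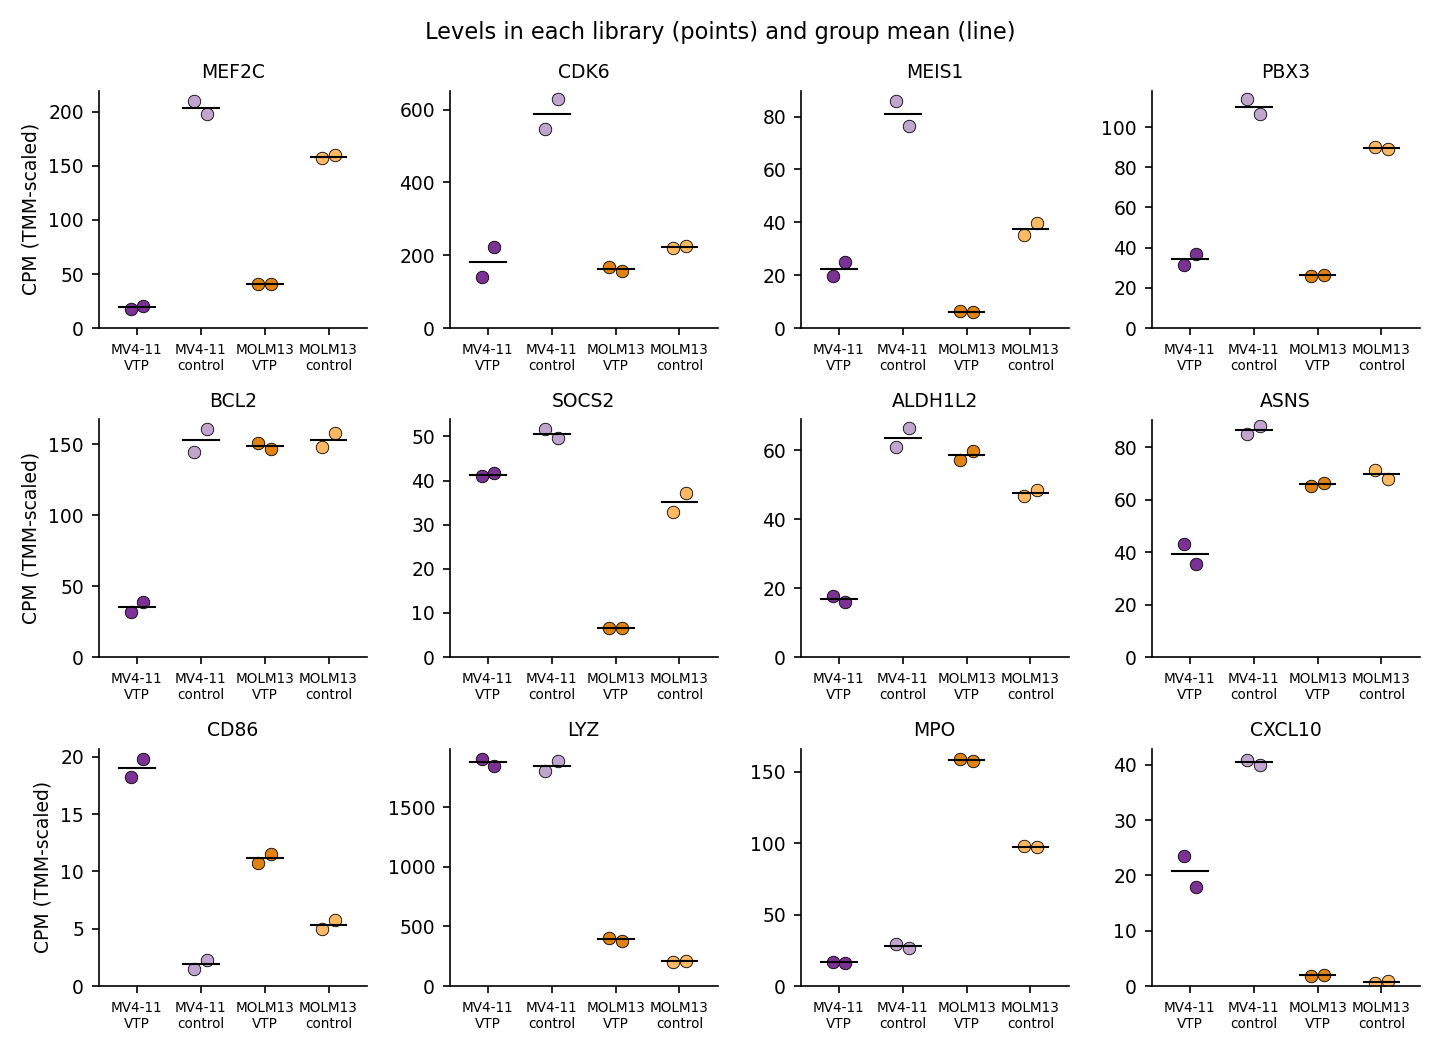
Level of 12 genes (vertical axis, CPM scaled within each line) in each library, as points, with the mean of each group as a line; groups run, left to right, treated and control MV4-11, then treated and control MOLM13. The treated points of BCL2 (31.6 and 38.9 CPM) lie far below their controls in MV4-11 alone, those of SOCS2 (6.53 and 6.62 CPM) and LYZ are set apart mainly in MOLM13, and MPO and CXCL10 are shifted in opposite directions in the lines.

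Among 22 other genes held to be MLL fusion targets, 16 were tested in both lines, of which 10 fell and 1 rose in MV4-11 and 8 fell and 1 rose in MOLM13. The difference was lower in MV4-11 for 5 (31.2%) and higher for 1 (6.25%), with a list median of -0.21. RUNX2, a transcription factor of the RUNX family, was at 15.01 and 19.99 CPM in treated and 38.98 and 43.4 CPM in control MV4-11 libraries, and at 19.6 and 21.1 CPM in treated and 22.9 and 23.4 CPM in control MOLM13 libraries. It fell in MV4-11 only, and the difference was -1.05 ± 0.19 (edgeR adjusted p = 0.0010). IGF2BP2, an RNA-binding protein that stabilizes mRNAs, fell in both lines with a difference of -0.97 ± 0.16. Calls for the chromatin organizer SATB1 (-0.70 ± 0.17), the splicing regulator MBNL1 (-0.81 ± 0.20) and the remodeling subunit ARID2 (-0.74 ± 0.19) were lost without treated MV4-11 replicate 1, which left 1 higher and 2 lower calls in the list, and that of ARID2 also with limma-voom.

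CDKN2C, an inhibitor of CDK4 and CDK6, was the single member with a higher response in MV4-11. It was at 29.9 and 28.2 CPM in treated and 25.1 and 28.4 CPM in control MV4-11 libraries, where treated and control values overlapped. In MOLM13 it fell, with 46.9 and 47.2 CPM in treated and 89.5 and 93.8 CPM in control libraries. The difference was 1.08 ± 0.17 (edgeR adjusted p = 0.00034).

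Of 18 genes of the Menin and MLL complexes and their partners, 1 had a higher (5.56%) and 3 a lower response in MV4-11 (16.7%). The lower calls numbered 0 with limma-voom and with 1 dispersion shared by both lines, and 1 without scaling factors. MEN1 itself had a difference of 0.16 ± 0.15. MLLT3, the AF9 gene and a partner in the MOLM13 fusion, was at 3.86 and 4.01 CPM in treated and 1.51 and 1.08 CPM in control MV4-11 libraries, and at 13.7 and 14.9 CPM in treated and 13.5 and 15.2 CPM in control MOLM13 libraries. Its treated libraries were above the controls in MV4-11 and overlapped them in MOLM13, for a difference of 1.64 ± 0.32 (edgeR adjusted p = 0.0019). KMT2A, at 70.4 and 113 CPM in treated and 103 and 116 CPM in control MV4-11 libraries, rose only in MOLM13 (log2 response 0.37 ± 0.05), a difference of -0.62 ± 0.19. AFF1, the AF4 gene, had a difference of -0.71 ± 0.19, and PSIP1, the chromatin adaptor LEDGF, one of -0.52 ± 0.17. None of these 3 calls held without treated MV4-11 replicate 1, and only that of PSIP1 held without control MV4-11 replicate 2. That of PSIP1 was also lost without control MV4-11 replicate 1, treated MV4-11 replicate 2, treated MOLM13 replicate 1 or control MOLM13 replicate 2, which left 2 lower calls without control MV4-11 replicate 1. That of KMT2A was also lost without treated MOLM13 replicate 1 and after centring over transcript length. Reads of a fusion transcript cannot be told apart here from those of the intact partner genes.

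Feedback genes of cytokine and FLT3 signaling split in both directions. Of 19 genes listed, 16 were tested, 5 with a higher (31.2%) and 4 with a lower response in MV4-11 (25.0%). The higher ones held inhibitors of JAK-STAT signaling, which STAT5 induces. SOCS2 (chromosome 12, 93569969 to 93626236) was at 40.95 and 41.7 CPM in treated and 51.6 and 49.7 CPM in control MV4-11 libraries, and at 6.53 and 6.62 CPM in treated and 32.99 and 37.2 CPM in control MOLM13 libraries. The treated libraries were below the controls in MV4-11 without a call (-0.29 ± 0.15) and far below them in MOLM13 (-2.42 ± 0.09), a difference of 2.12 ± 0.18 (edgeR adjusted p = 3.8e-09). SOCS1 rose in MV4-11, with 5.84 and 5.72 CPM in treated and 2.68 and 3.62 CPM in control MV4-11 libraries, and fell in MOLM13, with 9.56 and 9.91 CPM in treated and 15.8 and 13.1 CPM in control MOLM13 libraries. For SOCS3, 18.3 and 16.8 CPM in treated and 7.17 and 7.596 CPM in control MV4-11 libraries stood beside 4.41 and 4.54 CPM in treated and 5.21 and 4.503 CPM in control MOLM13 libraries. It rose in MV4-11 alone, and the differences were 1.43 ± 0.27 for SOCS1 and 1.36 ± 0.24 for SOCS3. CISH (0.61 ± 0.16) and the kinase gene PIM3 (0.65 ± 0.18) lost their calls without treated or control MV4-11 replicate 1, which left 3 higher calls in each of these fits, and that of CISH also without control MV4-11 replicate 2. PIM3 also lost its call with limma-voom and with 1 shared dispersion.

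The 4 lower genes of this list lie downstream of RAS-ERK signaling or drive the cycle. DUSP6 (chromosome 12, 89347235 to 89352501), a phosphatase that inactivates ERK, was at 16.6 and 15.8 CPM in treated and 35.1 and 30.7 CPM in control MV4-11 libraries, and at 10.9 and 11.1 CPM in treated and 7.15 and 6.93 CPM in control MOLM13 libraries. Treated libraries were below the controls in MV4-11 and above them in MOLM13, and both responses were called. The difference was -1.67 ± 0.20 (edgeR adjusted p = 2.3e-06). The ETS factors ETV4 (-2.09 ± 0.55) and ETV5 (-0.93 ± 0.21) and the cyclin gene CCND2 (-0.72 ± 0.17) fell in MV4-11 alone. Calls of ETV5 and CCND2 were lost without treated MV4-11 replicate 1, and that of ETV4, at 0.566 and 0.137 CPM in treated and 1.01 and 1.96 CPM in control MV4-11 libraries, without control or treated MV4-11 replicate 2 and in limma with a variance factor by line. Lower calls numbered 2 without treated MV4-11 replicate 1.

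BCL2 (chromosome 18, 63123346 to 63320090), the anti-apoptotic protein that venetoclax blocks, was among the 20 genes ranked lowest. Its level was 31.6 and 38.9 CPM in treated and 144 and 161 CPM in control MV4-11 libraries, and 150.5 and 146 CPM in treated and 148 and 158 CPM in control MOLM13 libraries. The MV4-11 groups lay far apart and the MOLM13 groups overlapped. The log2 response was -2.12 ± 0.16 in MV4-11 and -0.04 ± 0.04 in MOLM13, a difference of -2.07 ± 0.17 (edgeR adjusted p = 4.5e-07). PMAIP1 (NOXA), a BH3-only protein that binds MCL1, also fell in MV4-11 alone, with 8.85 and 12.2 CPM in treated and 19.6 and 21.97 CPM in control MV4-11 libraries, and a difference of -1.19 ± 0.21. BAD, another BH3-only gene, rose there, with a difference of 1.43 ± 0.29 that was lost without treated MV4-11 replicate 1. MCL1 (0.09 ± 0.16), BCL2L1 (0.16 ± 0.19) and BCL2L11, which encodes BIM (0.29 ± 0.18), were not called. In all, 2 of 15 genes of the BCL2 family and apoptosis inhibitors were higher (13.3%) and 2 lower (13.3%), with 1 to 3 higher over the alternatives with all 8 libraries, 0 higher without treated MV4-11 replicate 1 and 1 higher without control MV4-11 replicate 1.

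Genes of amino acid synthesis and uptake that the transcription factor ATF4 controls were lower in MV4-11 by the difference in response. All 25 were tested, and 16 had a lower response in MV4-11 (64.0%) and none a higher one. Within MV4-11, 19 fell and 1 rose, with a median log2 response of -0.76. Within MOLM13, none fell and 1 rose, with a median of -0.04. The median difference was -0.74, and it ran from -0.87 to -0.54 over the alternatives, with 10 (without control MV4-11 replicate 2) to 18 lower calls. ATF4 itself had a difference of 0.06 ± 0.17 and DDIT3 (CHOP) one of -0.35 ± 0.25, neither called.

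ALDH1L2 (chromosome 12, 105019790 to 105084458), an enzyme of mitochondrial folate metabolism, was at 17.8 and 15.9 CPM in treated and 60.8 and 66.4 CPM in control MV4-11 libraries, and at 57.1 and 59.96 CPM in treated and 46.7 and 48.6 CPM in control MOLM13 libraries. Treated libraries were below the controls in MV4-11 and above them in MOLM13, where the change was under the fold limit. The difference was -2.21 ± 0.17 (edgeR adjusted p = 9.0e-08). PSAT1 and PHGDH, enzymes of serine synthesis, had differences of -1.34 ± 0.16 and -0.76 ± 0.17. In MV4-11, PSAT1 stood at 103 and 93.7 CPM in treated and 269.9 and 325 CPM in control libraries, whereas in MOLM13 it was at 185 and 187 CPM and 221 and 222 CPM in treated and control libraries.

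Asparagine synthetase, ASNS (chromosome 7, 97851677 to 97928441), was at 43 and 35.4 CPM in treated and 84.8 and 87.9 CPM in control MV4-11 libraries, and at 65.2 and 66.5 CPM in treated and 71.2 and 67.98 CPM in control MOLM13 libraries. Its MV4-11 groups were well apart, and its difference was -1.06 ± 0.17 (edgeR adjusted p = 0.00029). SLC7A1 and SLC7A5, transporters of cationic and of large neutral amino acids, had differences of -1.15 ± 0.17 and -0.89 ± 0.17. CHAC1, an enzyme that breaks down glutathione, was at 39.2 and 30.9 CPM in treated and 66.3 and 80.6 CPM in control MV4-11 libraries, and at 6.14 and 3.997 CPM in treated and 4.21 and 5.297 CPM in control MOLM13 libraries, a difference of -1.15 ± 0.24 (edgeR adjusted p = 0.0011) whose call was lost with limma-voom. CTH, the cystathionine cleaving enzyme of cysteine synthesis, and STC2, a secreted glycoprotein, had differences of -1.47 ± 0.27 and -2.06 ± 0.26. INHBE and ADM2, secreted factors that were ranked by size rather than by list, fell in MV4-11 in the same manner, with differences of -2.25 ± 0.45 and -1.82 ± 0.22. Outside the list, BCAT1, which starts the breakdown of branched-chain amino acids, was at 11.4 and 14.7 CPM in treated and 48.2 and 60.4 CPM in control MV4-11 libraries, and at 166 and 164 CPM in treated and 153 and 153 CPM in control MOLM13 libraries, a difference of -2.17 ± 0.19 (edgeR adjusted p = 1.0e-06).

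Promoters of the list were searched for TGATGNAA, letters of the element that ATF4 and C/EBP proteins bind, and TTNCATCA on the other strand. The RefSeq windows (GRCh38.p14) run from 250 bases before to 50 bases after the start, 300 bases in all, and 20 of the 25 genes had one. The letters were found in 4 of these 20, namely ASNS, CHAC1, SLC7A1 and SLC3A2. That is 3 of 13 genes called lower and 1 of 7 not called, against 157 of 9569 promoters of tested genes (1.64%) and 1003 of all 27305 (3.67%). A match is a description of the letters and no evidence of binding. The 3 promoters of genes called lower are printed 5′ to 3′ on the strand of the gene, with the match in capitals, to show where it lies. They are chr7:97872359-97872658 (ASNS, minus strand), chr15:40953221-40953520 (CHAC1, plus strand) and chr13:29595639-29595938 (SLC7A1, minus strand).
ASNS: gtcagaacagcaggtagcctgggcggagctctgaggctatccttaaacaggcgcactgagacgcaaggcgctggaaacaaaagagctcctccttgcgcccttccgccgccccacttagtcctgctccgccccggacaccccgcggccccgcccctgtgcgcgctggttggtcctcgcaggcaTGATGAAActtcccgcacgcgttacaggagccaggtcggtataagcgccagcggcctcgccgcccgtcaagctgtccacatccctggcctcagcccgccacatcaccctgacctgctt
CHAC1: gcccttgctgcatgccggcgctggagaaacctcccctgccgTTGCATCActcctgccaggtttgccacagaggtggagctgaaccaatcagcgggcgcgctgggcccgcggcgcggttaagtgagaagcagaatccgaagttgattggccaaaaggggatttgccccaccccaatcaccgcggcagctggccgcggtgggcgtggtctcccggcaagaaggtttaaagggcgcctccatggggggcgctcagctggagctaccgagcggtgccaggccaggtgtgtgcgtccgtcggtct
SLC7A1: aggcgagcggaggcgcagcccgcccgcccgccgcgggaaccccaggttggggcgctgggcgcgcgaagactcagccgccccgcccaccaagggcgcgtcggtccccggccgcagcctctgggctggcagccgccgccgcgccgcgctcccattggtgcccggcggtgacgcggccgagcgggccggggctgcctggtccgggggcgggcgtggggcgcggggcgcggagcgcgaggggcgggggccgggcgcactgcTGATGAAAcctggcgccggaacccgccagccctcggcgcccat

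**Figure D5:**
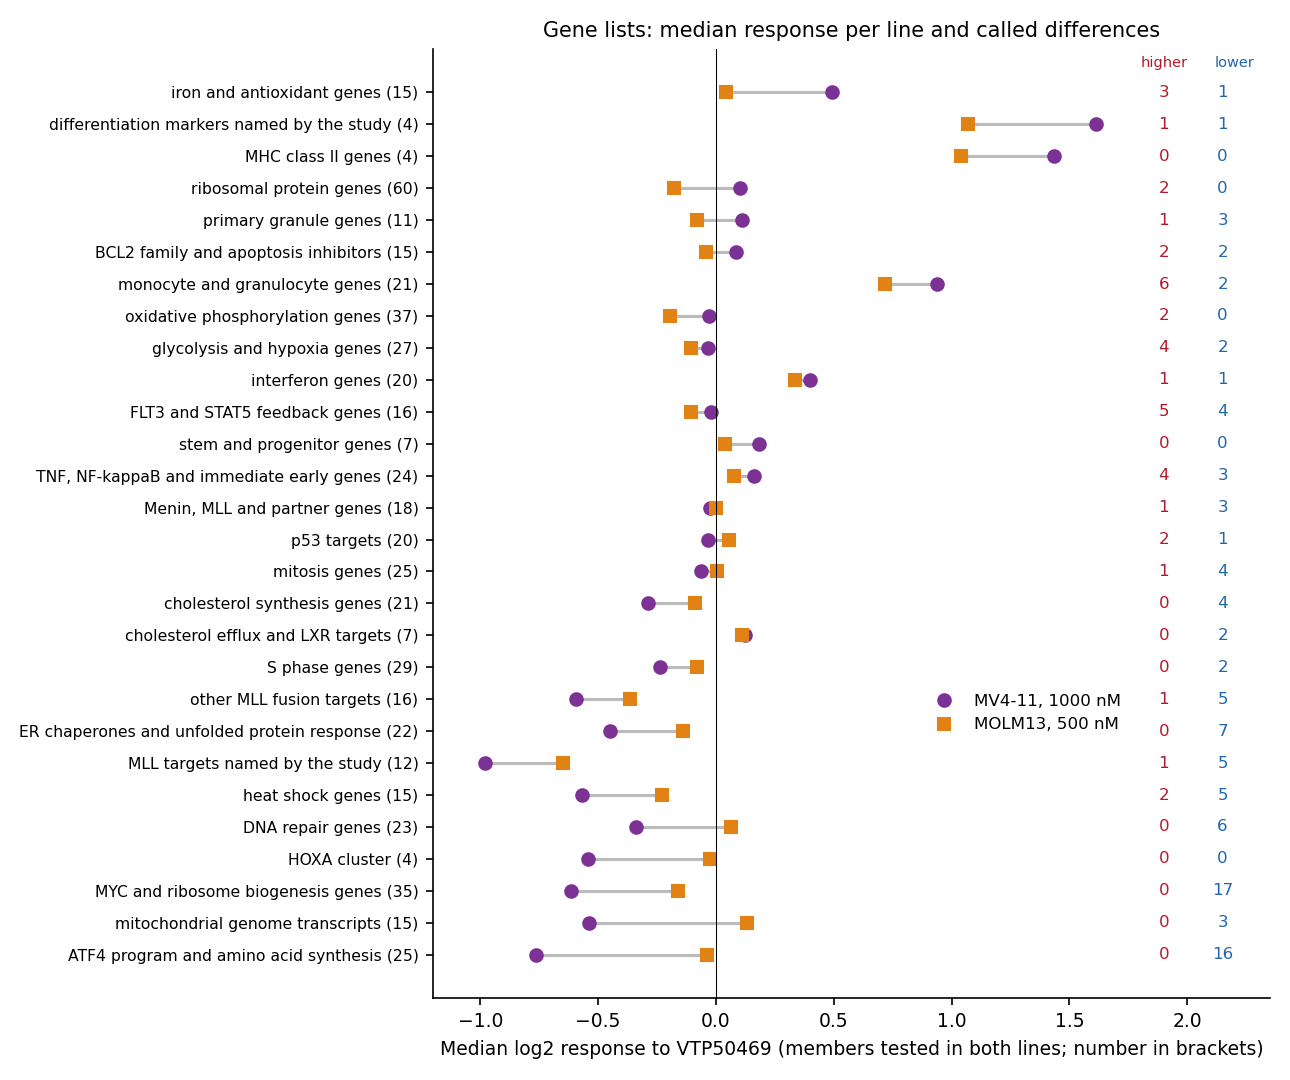
Median log2 response to VTP50469 (horizontal axis) of gene lists with 4 or more members tested in both lines (vertical axis, number of members in brackets), as circles for MV4-11 and squares for MOLM13. Numbers at the right count members called higher or lower in MV4-11. The ATF4 program at the bottom has medians of -0.76 in MV4-11 and -0.04 in MOLM13, with 16 lower and 0 higher calls. Monocyte and granulocyte genes lie to the right in both lines (0.94 in MV4-11 and 0.72 in MOLM13). Primary granule genes do not, with medians of 0.11 and -0.08.

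Genes of MYC and ribosome biogenesis also fell more widely in MV4-11. Of 35 tested, 29 fell in MV4-11 (median log2 response -0.62) and 7 fell in MOLM13 (median -0.16), and the difference was lower for 17 (48.6%) and higher for none, with a median of -0.52. MYC, the transcription factor, was at 361 and 377 CPM in treated and 746 and 656 CPM in control MV4-11 libraries, and at 1266 and 1275 CPM in treated and 1580 and 1642 CPM in control MOLM13 libraries. It fell in both lines, and the difference of -0.58 ± 0.16 (edgeR adjusted p = 0.024) was lost without treated or control MV4-11 replicate 1. DDX21, a helicase of the nucleolus, was at 150 and 186 CPM in treated and 372 and 346 CPM in control MV4-11 libraries, and at 442 and 440 CPM in treated and 482 and 504 CPM in control MOLM13 libraries, a difference of -0.94 ± 0.16 (edgeR adjusted p = 0.0010). Its treated libraries were below its controls in both lines, by less than the fold limit in MOLM13. The nucleolar scaffold NOLC1 (-0.91 ± 0.16), the processome subunit WDR43 (-0.87 ± 0.16) and the pseudouridine synthase subunit DKC1 (-0.77 ± 0.15) kept their calls whichever library was left out. Lower calls in this list numbered 5 without treated MV4-11 replicate 1 and 7 without control MV4-11 replicate 1, with medians of -0.57 and -0.41, and 26 after centring over transcript length.

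Ribosomal protein genes did not follow this list. Of 60, 2 were called higher (3.33%), with a median difference of 0.30 that was 0.08 without treated MV4-11 replicate 1, and their transcripts are short (median 1985 bases against 3537 over all tested genes). Over the alternatives 0 to 29 of them were called higher, with 0 without treated or control MV4-11 replicate 1, 18 without treated MV4-11 replicate 2 and 7 without control MV4-11 replicate 2.

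Genes of the unfolded protein response and of protein folding were lower in part. Of 22 genes of the endoplasmic reticulum, 7 had a lower response in MV4-11 (31.8%). XBP1, a transcription factor of this response, was at 177 and 156 CPM in treated and 378 and 376 CPM in control MV4-11 libraries, and at 319.7 and 316 CPM in treated and 409 and 419 CPM in control MOLM13 libraries. It fell in both lines, and further in MV4-11 (-0.80 ± 0.16, edgeR adjusted p = 0.0028). The chaperone HYOU1 fell in MV4-11 alone, with a difference of -0.74 ± 0.15. Without treated MV4-11 replicate 1, 2 calls remained in this list, and without control MV4-11 replicate 1, 4. Of 15 heat shock genes, 5 were lower (33.3%, and 4 to 8 genes over the alternatives with all 8 libraries) and 2 higher (13.3%), and BAG3, a co-chaperone of HSP70, was the member that kept its call whichever library was left out. It was at 27.6 and 26.8 CPM in treated and 20.4 and 19.3 CPM in control MV4-11 libraries, and it fell in MOLM13, with 22.8 and 22.2 CPM in treated and 29.9 and 30.1 CPM in control libraries, a difference of 0.87 ± 0.18. Heat shock calls numbered 1 higher and 0 lower without treated MV4-11 replicate 1, 1 and 1 without control MV4-11 replicate 1, 2 and 3 without treated MV4-11 replicate 2, and 1 and 3 without control MV4-11 replicate 2.

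Many myeloid genes rose in both lines. Of 33 monocyte and granulocyte genes, 21 were tested, of which 14 rose in MV4-11 and 14 rose in MOLM13, with median log2 responses of 0.94 and 0.72. The difference was higher in MV4-11 for 6 (28.6%) and lower for 2 (9.52%). The lower calls numbered 0 with DESeq2, limma-voom and 1 shared dispersion, and the higher ones 6 to 8 over the alternatives with all 8 libraries. Without treated MV4-11 replicate 1 these counts were 2 and 1, and without control MV4-11 replicate 1 they were 4 and 0, and without control MV4-11 replicate 2 they were 3 and 1. CSF1R, the receptor for the macrophage growth factor CSF-1, is an example of a shared rise, with 239 and 230.2 CPM in treated and 101 and 109.9 CPM in control MV4-11 libraries, and 18.9 and 20.3 CPM in treated and 9.85 and 8.48 CPM in control MOLM13 libraries. Its difference was 0.05 ± 0.18. The integrin ITGAM (CD11b) rose in both lines with a difference of 0.69 ± 0.28 (edgeR adjusted p = 0.088), and ITGAX (CD11c) with one of 0.27 ± 0.24.

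CD86 (chromosome 3, 122055362 to 122121136), a costimulatory ligand of antigen-presenting cells, rose in both lines and more in MV4-11. It was at 18.2 and 19.8 CPM in treated and 1.51 and 2.31 CPM in control MV4-11 libraries, and at 10.7 and 11.6 CPM in treated and 4.97 and 5.74 CPM in control MOLM13 libraries. No treated library came near a control in either line, and the difference was 2.22 ± 0.26 (edgeR adjusted p = 4.2e-06). S100A9, a subunit of calprotectin, likewise rose in both lines, with a difference of 1.42 ± 0.25, and S100A8, its partner, with one of 1.94 ± 0.40 that was lost without treated MV4-11 replicate 1. KLF4, a transcription factor of monocyte differentiation, was at 23.04 and 26.02 CPM in treated and 7.72 and 10.3 CPM in control MV4-11 libraries, and at 12.6 and 12.2 CPM in treated and 9.56 and 9.76 CPM in control MOLM13 libraries, a difference of 1.08 ± 0.22 (edgeR adjusted p = 0.0016).

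Lysozyme, LYZ (chromosome 12, 69348381 to 69354234), rose only in MOLM13. Its level was 1908 and 1850 CPM in treated and 1803 and 1887 CPM in control MV4-11 libraries, and 404 and 380.4 CPM in treated and 201 and 213 CPM in control MOLM13 libraries. The MV4-11 groups overlapped at levels far above those of MOLM13, and the difference was -0.89 ± 0.18 (edgeR adjusted p = 0.0032). Myeloperoxidase, MPO, a primary granule enzyme, fell in MV4-11, with 17.02 and 16.1 CPM in treated and 29.6 and 26.9 CPM in control MV4-11 libraries, and rose in MOLM13, with 159 and 157 CPM in treated and 98.3 and 96.99 CPM in control MOLM13 libraries. The difference was -1.47 ± 0.17 (edgeR adjusted p = 2.5e-05). The granule protease CTSG had a difference of -0.80 ± 0.16, whereas ELANE, neutrophil elastase (0.28 ± 0.18), and AZU1, azurocidin (0.42 ± 0.18), were not called. Of 11 primary granule genes tested, 3 were lower (27.3%) and 1 higher (9.09%), with a positive median difference of 0.20. Without treated or control MV4-11 replicate 1, 2 were lower and 0 higher, and without treated MV4-11 replicate 2, 2 and 1. ABCA1, which exports cholesterol from macrophages, was at 22.6 and 43.2 CPM in treated and 19.99 and 30.3 CPM in control MV4-11 libraries, and rose in MOLM13, with 3.85 and 5.25 CPM in treated and 1.04 and 1.37 CPM in control MOLM13 libraries, a difference of -1.53 ± 0.34 (edgeR adjusted p = 0.0020) whose call was lost with DESeq2, limma-voom and 1 shared dispersion.

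Of the 4 MHC class II genes tested in both lines, all rose in MV4-11 and 2 rose in MOLM13, with none called for the difference. HLA-DRA, a chain of the antigen-presenting HLA-DR, was at 14.7 and 11.2 CPM in treated and 5.66 and 4.695 CPM in control MV4-11 libraries, and at 0.562 and 0.833 CPM in treated and 0.189 and 0.177 CPM in control MOLM13 libraries. Its difference was -0.58 ± 0.59. Among 20 interferon genes, 6 rose in MV4-11 and 8 rose in MOLM13, and the difference was called for 2, 1 in each direction (5% each, under the shares over all genes). IRF7, a factor that induces interferon genes, was higher (0.75 ± 0.20), a call that was lost without treated or control MV4-11 replicate 1.

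CXCL10 (chromosome 4, 76021118 to 76023497), a chemokine that interferon induces, was the lower one. It fell in MV4-11, with 23.6 and 17.9 CPM in treated and 40.95 and 39.97 CPM in control MV4-11 libraries, and rose in MOLM13, with 1.86 and 2.08 CPM in treated and 0.568 and 0.839 CPM in control MOLM13 libraries. Every MV4-11 library was above every MOLM13 library. The difference was -2.44 ± 0.36 (edgeR adjusted p = 7.4e-06). Of 24 genes of TNF, NF-kappaB and immediate early signaling, 4 were higher (16.7%) and 3 lower (12.5%), with 2 to 6 lower over the alternatives with all 8 libraries. The transcription factor EGR1 was at 4.14 and 5.52 CPM in treated and 4.695 and 3.81 CPM in control MV4-11 libraries, and fell in MOLM13 alone, with 5.11 and 3.91 CPM in treated and 10.8 and 12.1 CPM in control MOLM13 libraries, a difference of 1.55 ± 0.28. JUNB, a subunit of AP-1, and ZFP36, which destabilizes AU-rich mRNAs, had differences of 0.78 ± 0.15 and 0.89 ± 0.16. JUN was at 46.5 and 48.6 CPM in treated and 58.5 and 59.9 CPM in control MV4-11 libraries, and rose in MOLM13 at lower levels of 2.42 and 2.58 CPM in treated and 1.09 and 1.501 CPM in control libraries, a difference of -1.26 ± 0.30. ICAM1, an adhesion molecule that NF-kappaB induces, fell in MV4-11 and rose in MOLM13 (-1.07 ± 0.21).

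Several iron and antioxidant genes rose in MV4-11. Of 15 tested, 7 rose and 2 fell in MV4-11 and none was called in MOLM13. The difference was higher for 3 (20.0%, and 3 to 6 genes over the alternatives with all 8 libraries) and lower for 1 (6.67%), HSPA13, which encodes a chaperone of the HSP70 family and lost its call without treated MV4-11 replicate 1. HMOX1 (chromosome 22, 35381096 to 35394207), the enzyme that degrades heme, was at 12.1 and 10.6 CPM in treated and 1.82 and 1.66 CPM in control MV4-11 libraries, and at 1.64 and 0.749 CPM in treated and 0.757 and 1.24 CPM in control MOLM13 libraries. Treated libraries were above the controls in MV4-11 and overlapped them in MOLM13, for a difference of 2.46 ± 0.43 (edgeR adjusted p = 9.5e-05). SQSTM1, the autophagy adaptor p62, had a difference of 0.92 ± 0.16, and ME1, malic enzyme, one of 1.82 ± 0.41 that was lost without treated MV4-11 replicate 1 and in limma with a variance factor by line.

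Of 27 glycolysis and hypoxia genes, 4 were higher (14.8%) and 2 lower (7.41%), with 2 to 5 lower over the alternatives with all 8 libraries, 2 and 1 without treated MV4-11 replicate 1 and 2 and 2 without control MV4-11 replicate 1. NDRG1, a gene that hypoxia induces, rose in MV4-11, with 110 and 107 CPM in treated and 44.5 and 48.1 CPM in control MV4-11 libraries, and its change in MOLM13 (0.31 ± 0.04) was under the fold limit. The differences were 0.92 ± 0.16 for NDRG1, 1.01 ± 0.18 for PFKFB3, a regulator of glycolytic flux, and -0.73 ± 0.16 for VEGFA, the vascular growth factor, which rose in MOLM13 alone. Of 21 cholesterol synthesis genes, 4 were lower (19.0%), and 2 to 7 over the alternatives with all 8 libraries. DHCR7, the last enzyme of that pathway, was at 15.5 and 17.2 CPM in treated and 38.2 and 39.6 CPM in control MV4-11 libraries, and at 103 and 109 CPM in treated and 95.3 and 92.4 CPM in control MOLM13 libraries, a difference of -1.43 ± 0.17 (edgeR adjusted p = 2.7e-05). The other 3 lower calls of this list, SQLE among them (-0.73 ± 0.17), did not hold without treated MV4-11 replicate 1, and 2 calls were left without control MV4-11 replicate 1 or 2 or control MOLM13 replicate 1.

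Of 29 S phase genes 2 were lower (6.90%, and 2 to 6 genes over the alternatives with all 8 libraries), which is near the share over all genes. Of 25 mitosis genes 4 were lower (16.0%, and 1 to 9 genes) and 1 higher (4%), and of 20 p53 targets 2 were higher (1 to 3 over these alternatives) and 1 lower (5%, and 0 to 3 genes). None of these calls held without treated MV4-11 replicate 1 or without control MV4-11 replicate 1. DNA repair genes, whose transcripts are long (median 5240 bases), had 6 lower calls of 23 (26.1%, and 5 to 10 genes over the alternatives with all 8 libraries) and a median of -0.37. PRKDC, the catalytic subunit of DNA-PK, was at 306 and 442 CPM in treated and 487 and 602 CPM in control MV4-11 libraries, and at 1947 and 1862 CPM in treated and 1268 and 1370 CPM in control MOLM13 libraries. It fell in MV4-11 and rose in MOLM13, with a difference of -1.07 ± 0.19, and BRCA2, a gene of homologous recombination, had one of -1.05 ± 0.19. After centring over transcript length 8 genes of this list were lower, and without treated MV4-11 replicate 1 there were 2.

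Transcripts of the mitochondrial genome moved with the mitochondrial share given above. Of 15, 3 were called lower (20.0%), with a median difference of -0.68, with 0 called by DESeq2, limma-voom or 1 shared dispersion and up to 9 (without a filter on low counts) over the alternatives with all 8 libraries. None was called without treated MV4-11 replicate 1. Without control MV4-11 replicate 1, the library with 10.3%, none was called and the median was 0.01, and without control MV4-11 replicate 2, 13 were called and the median was -1.14. MT-ND1, a subunit of complex I, was at 4453 and 4702 CPM in treated and 9414 and 3869 CPM in control MV4-11 libraries, and at 3708 and 4197 CPM in treated and 3417 and 3907 CPM in control MOLM13 libraries.

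Beyond the lists, called genes were ranked by the size of the difference. A mean of 5 CPM or more in a group and no overlap of response between the lines were required, which 834 higher and 894 lower genes met. The lack of overlap left out few genes, since it held for all 894 higher and for 966 of the 974 lower calls. Over all 13060 tested genes it held for 6223, in either direction. BBX (chromosome 3, 107522962 to 107811339), a transcription factor with an HMG box, led the lower genes. It was at 18.5 and 26.9 CPM in treated and 131 and 133 CPM in control MV4-11 libraries, and at 22.1 and 22.4 CPM in treated and 17.5 and 18.4 CPM in control MOLM13 libraries. The MV4-11 groups were far apart, and the treated MOLM13 libraries were slightly above their controls. The difference was -2.85 ± 0.20 (edgeR adjusted p = 3.7e-09). Also among the lowest 20 were MIR155HG, the host transcript of miR-155 (-2.15 ± 0.30), HDAC9, a histone deacetylase (-1.85 ± 0.21), UGCG, the enzyme that makes glucosylceramide (-1.79 ± 0.21), RXFP1, the relaxin receptor (-1.78 ± 0.20), and MS4A4A, a surface protein of macrophages (-1.72 ± 0.33). MIR155HG was at 2.48 and 3.15 CPM in treated and 12.7 and 11.9 CPM in control MV4-11 libraries, and at 3.16 and 2.67 CPM in treated and 3.08 and 2.65 CPM in control MOLM13 libraries. Each of these 5 fell in MV4-11 and was not called in MOLM13.

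The highest 20 held lysosomal and myeloid genes beside others. CTSF, the lysosomal protease cathepsin F, was at 25.4 and 23.6 CPM in treated and 4.75 and 5.28 CPM in control MV4-11 libraries, and at 6.32 and 6.45 CPM in treated and 5.49 and 4.94 CPM in control MOLM13 libraries, a difference of 1.99 ± 0.24 (edgeR adjusted p = 1.0e-06). PADI2, an enzyme that citrullinates proteins, was at 37.98 and 38.9 CPM in treated and 7.88 and 7.53 CPM in control MV4-11 libraries, and at 5.06 and 5.87 CPM in treated and 4.02 and 4.24 CPM in control MOLM13 libraries, a difference of 1.92 ± 0.24 (edgeR adjusted p = 7.4e-07). Both rose in MV4-11, and PADI2 also rose in MOLM13. MYCL, a relative of MYC, rose in MV4-11 alone (2.01 ± 0.23), as did MCUB, an inhibitory subunit of the mitochondrial calcium uniporter (2.22 ± 0.36). ECM1, a secreted matrix protein, rose in MV4-11 and fell in MOLM13, with a difference of 1.98 ± 0.20. FCGR1BP, a pseudogene of the Fc gamma receptor family whose reads may be shared with its parent genes, was at 3.999 and 3.94 CPM in treated and 4.695 and 5.15 CPM in control MV4-11 libraries, and fell in MOLM13, with 5.28 and 4.83 CPM in treated and 23 and 24.4 CPM in control MOLM13 libraries, a difference of 1.92 ± 0.26.

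Opposite calls in the lines were made for 51 genes with a called difference, 32 of which rose in MV4-11 and fell in MOLM13 and 19 of which did the reverse. PMP22 (chromosome 17, 15229779 to 15265326), a membrane protein of peripheral myelin, was at 5.06 and 4.08 CPM in treated and 1.21 and 1.08 CPM in control MV4-11 libraries, and at 3.85 and 4.37 CPM in treated and 8.05 and 7.68 CPM in control MOLM13 libraries. Neither line's groups overlapped, and the difference was 2.94 ± 0.33 (edgeR adjusted p = 2.4e-06). KDM7A, a histone demethylase, was at 2.301 and 3.36 CPM in treated and 0.707 and 0.587 CPM in control MV4-11 libraries, and at 4.196 and 4.79 CPM in treated and 6.29 and 6.004 CPM in control MOLM13 libraries, a difference of 2.59 ± 0.40. CTSL, the lysosomal protease cathepsin L, was low in MV4-11, with 1.98 and 2.02 CPM in treated and 0.353 and 0.587 CPM in control MV4-11 libraries, and at 28.7 and 26.6 CPM in treated and 38.05 and 37.2 CPM in control MOLM13 libraries, a difference of 2.48 ± 0.41. All MOLM13 levels of CTSL were above those of MV4-11, and the lines moved towards each other. ADRA2C, an adrenergic receptor (2.66 ± 0.40), followed the same pattern of calls.

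In the reverse direction, KCNQ5, a potassium channel, was at 2.73 and 3.74 CPM in treated and 7.52 and 7.21 CPM in control MV4-11 libraries, and at 57.97 and 57.04 CPM in treated and 43.3 and 45.2 CPM in control MOLM13 libraries. It fell in MV4-11 and rose in MOLM13, and the difference was -1.56 ± 0.24 (edgeR adjusted p = 0.00037). DUSP6, CXCL10 and MPO, described above, belong to these genes. LINC02910, a long noncoding RNA, had a difference of -1.59 ± 0.23.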

How the data were processed

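RNA-seq of 2 AML lines was analysed from a table of raw read counts of 58037 gene IDs in 18 libraries, as the authors deposited it, of which 8 libraries were used. The submitters' processing notes name STAR and hg38, whereas the study's methods name TopHat2; no source used here gives the strand setting of the counting. No value column was left unmapped (0). Gene positions and promoters are from RefSeq (GRCh38.p14).

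Each line was fitted apart with edgeR 4.0.16 (quasi-likelihood, TMM, filterByExpr with a minimum count of 10) in R 4.3.3, since the spread differed by line. The difference was tested with combined errors, Satterthwaite degrees of freedom and Benjamini-Hochberg adjustment over 13060 genes. Calls needed an adjusted p below 0.05 and a log2 change of at least 0.32 in size. limma 3.58.1 and DESeq2 1.42.0 served as alternatives, beside other scalings, filters, left-out libraries and, chosen after seeing the data, centring over transcript length. Scripts were tested on simulated data.

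Genes named are members of 31 lists, and the 20 called genes with the largest difference in each direction plus 5 with opposite calls, given a symbol, a mean of 5 CPM in a group and responses that did not overlap between lines. The members and lists were chosen with earlier results of these data known. Values after ± are standard errors of the fits and hold the spread between libraries, whereas the floor of 3 counts covers counting error only.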

Additional observations from a re-analysis of the deposited data

Results flagged for a closer look

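The response to VTP50469 differed between MV4-11 and MOLM13 for 1868 genes by the test of the difference, which combined the errors of the edgeR fits of both lines. For 51 of these genes the lines had opposite calls. The largest of these 51 in each direction were TRD-AS1 (3.23), PMP22 (2.94), ADRA2C (2.66), KDM7A (2.59) and CTSL (2.48) on the higher side and CXCL10 (-2.44), DUSP6 (-1.67), LINC02910 (-1.59), KCNQ5 (-1.56) and MPO (-1.47) on the lower side, as log2 response of MV4-11 minus that of MOLM13. TRD-AS1, an antisense transcript of the T cell receptor delta locus, was at 0.566 and 0.514 CPM in treated and 0.0505 and 0.163 CPM in control MV4-11 libraries, and at 8.44 and 9.08 CPM in treated and 18.6 and 18.2 CPM in control MOLM13 libraries, and its call was lost without treated MV4-11 replicate 1. Its level in control MV4-11 replicate 1 was under the 3 counts (0.145 CPM) of that library. In MV4-11 it passed the count filter through its treated libraries alone, so the size of its difference is uncertain. No group held enough libraries for a test of single outlying samples.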

How the results depend on the processing

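No named call turned direction under any alternative. Higher and lower calls of the difference ran from 258 to 967 and from 230 to 1316 when 1 library was left out. Over all 15486 genes tested in MV4-11, 1762 rose and 1446 fell, and 853 to 1627 rose and 657 to 1355 fell when 1 library was left out. One fit over all 18 libraries, which share 1 estimate of spread, gave 1852 higher and 1804 lower calls. Genes that fell in MV4-11 numbered 2212 with DESeq2 and 2458 with limma-voom on quantile-normalized values. Over all 13711 genes tested in MOLM13, 1195 rose and 773 fell. DESeq2 gave 295 genes that rose and 251 that fell, limma-voom 171 and 200, and the absence of a fold limit 2399 and 2840. The DESeq2 and limma-voom fits took all 8 libraries together, with 1 estimate of spread per gene for both lines. The main fit gave each line its own estimate, with a biological coefficient of variation of 13.2% in MV4-11 and 2.38% in MOLM13. Its part in these counts was not tested, and dropping the fold limit adds small changes. Genes that rose made up 60.7% of these 1195 and 773 calls together, and 73.9% without scaling factors. Of 173 named genes with a called difference, 143 (limma-voom) to 173 kept it in fits with all 8 libraries, 81 without treated MV4-11 replicate 1 and 111 without control MV4-11 replicate 1. Deviations of same-numbered libraries from their group means had a correlation across genes of 0.0978 in MV4-11 and -0.0546 in MOLM13. These values do not settle whether replicate numbers pair the libraries, and the main fits were unpaired. With the replicate number as a block, 1168 genes were higher and 1330 lower, and all 173 named calls were kept. Within MV4-11, 2155 genes rose and 1874 fell in that fit. With 2 libraries a group, small differences in MV4-11 were not detectable at this spread.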

Other observations

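Genes active in 1 line alone had no difference to test. Of 2426 genes tested only in MV4-11, 264 rose and 103 fell there, and of 651 tested only in MOLM13, 61 rose and 72 fell. Among genes tested in both lines, 11.5% rose and 10.3% fell in MV4-11, and 8.68% rose and 5.37% fell in MOLM13. These counts are descriptions of such genes and were not tested against those shares. The examples that follow were chosen after their values were seen, among the most abundant except for HOXA7. All of them but F13A1 fell, although more of these genes rose than fell in MV4-11, so they do not stand for the counts above. In MV4-11, UNC5C, a netrin receptor, was at 67.3 and 86.02 CPM in treated and 184 and 219.6 CPM in control libraries (log2 response -1.40 ± 0.17, edgeR adjusted p = 2.3e-05) and had 0 counts in MOLM13. BEX1, an adaptor protein of neural tissue, fell by a like amount (-1.36 ± 0.16), as did the forkhead factor FOXP2 (-1.25 ± 0.18), while F13A1, a coagulation factor chain made by monocytes, rose (0.86 ± 0.16).

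In MOLM13, DACH1, a transcriptional cofactor, was at 27 and 24.7 CPM in treated and 124 and 132 CPM in control libraries (log2 response -2.31 ± 0.05, edgeR adjusted p = 3.1e-30) and had 1 count over the 4 MV4-11 libraries. ZNF521, a zinc finger protein of hematopoietic progenitors, fell with it (-2.04 ± 0.06), as did EFNA5, an ephrin ligand (-2.43 ± 0.12), and the bHLH factor TWIST1 (-0.93 ± 0.10). HOXA7, a homeobox gene of the HOXA cluster, was at 0.995 and 1.21 CPM in treated and 2.46 and 3.22 CPM in control MOLM13 libraries and had 0 counts in MV4-11.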
